A study of Homo sapiens with 12 samples.

Results

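Epithelial and mesenchymal identity was examined through 10 genes, CDH1, CDH2, EPCAM, VIM, FN1, ZEB1, ZEB2, SNAI1, SNAI2 and TWIST1, which were picked by name. All 10 are among the 25914 genes listed in both tables. The series comprises 12 RNA-seq libraries in 4 groups of 3. RPE-1 hTERT cells, a noncancerous retinal pigment epithelium line immortalized with telomerase, received either Nutlin-3a at 10 µM or the DMSO solvent for 24 h. HCT116 cells, a colon cancer line, received the same treatments. The labels give both lines as wild-type epithelial cells, each line stands for its tissue only as an established culture, and no group carries another allele or agent. Nutlin-3a blocks the binding of MDM2 to p53, so that p53 accumulates, and the design asks how the transcriptome of each line responds to it.

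The measure reported here is the base mean, the authors' mean over libraries of read counts scaled for library size. It was the same in both tables for each of the 25914 genes, so that 1 value per gene covers both treatments and both lines. Which libraries entered this mean is not stated, and it may cover libraries beyond these 12. It has no error and no number of replicates, and the depth of single libraries is unknown. A level in RPE-1 cells, a level in HCT116 cells and a response to Nutlin-3a therefore cannot be told apart in it, and no comparison of the groups was made. Base means summed to 30058022 over the listed genes, with a median of 149.8 per gene. The lowest value among the listed genes was 2.91.

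Epithelial cells hold to each other through E-cadherin and form closed sheets, whereas mesenchymal cells are loosely attached and motile and rest on a vimentin network and a fibronectin-rich matrix. The transition between both states is known to be driven by a small set of transcription factors of the ZEB, SNAIL and TWIST families, which bind E-box sequences and repress CDH1. Carcinoma lines such as HCT116 usually keep epithelial features, and retinal pigment epithelium in culture is known to take on mesenchymal ones.

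The structural genes of both states had high mean levels, and the 5 transcription factors had levels near the middle of the listed genes. Together, the 10 genes held 0.520% of the summed base mean. FN1 and VIM alone accounted for 86.5% of the total of the 10 genes, and the 5 transcription factors summed to a base mean of 1970. Since a longer transcript collects more reads, levels of different genes were compared after division by length, mainly that of all annotated exons, in units of mean normalized counts per kb. On this scale, the median of all listed genes was 51.3, and 9 of the 10 genes lay above it. With coding length, only the 5 structural genes lay above the median of that scale (442.9 over genes with a coding sequence), and all 5 transcription factors lay below it. No spread between libraries stands behind these values, so whether genes next to each other in this order differ beyond their error could not be examined.

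**Figure D1:**
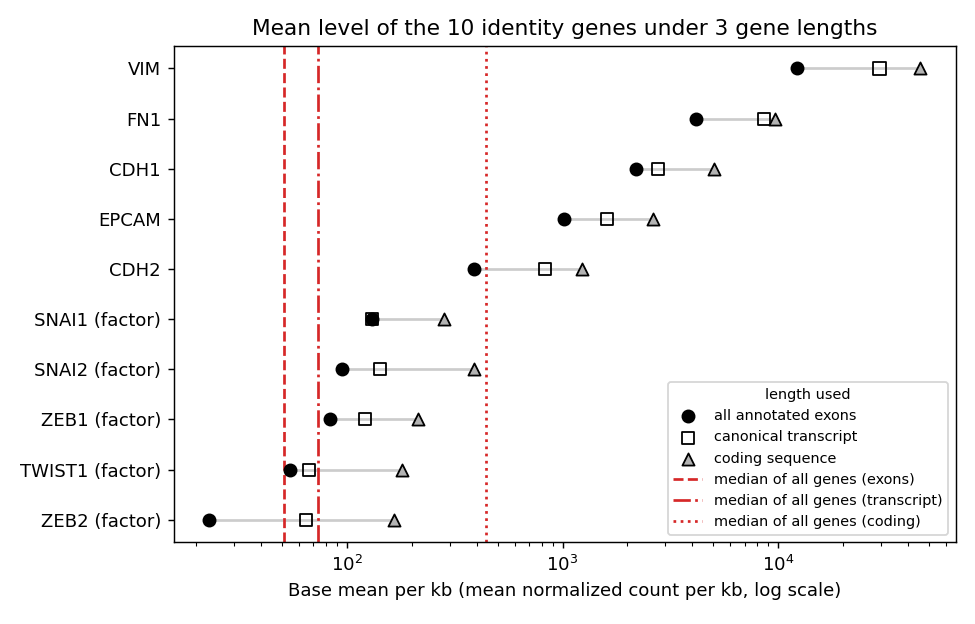
Mean level of the 10 genes in mean normalized counts per kb on a log axis, 1 row per gene. Circles use the length of all annotated exons, squares that of the canonical transcript and triangles that of the coding sequence, and the dashed, dash-dotted and dotted lines are the medians of all genes with these lengths in the same order, 51.3, 73.4 and 442.9. The 5 structural genes stand above the 5 transcription factors under each length, and the order within the factors shifts with the length used.

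VIM encodes vimentin, the intermediate filament protein of mesenchymal cells. It is located on chromosome 10 of GRCh38 from 17228241 to 17237593 on the + strand (ENSG00000026025), and its canonical transcript has 10 exons. Its base mean was 63458, rank 17 of all listed genes, and its level per kb was 12260, the highest of the 10 genes. FN1 encodes fibronectin, a glycoprotein of the extracellular matrix, and lies on chromosome 2 from 215360440 to 215436073 on the − strand (ENSG00000115414), with 46 exons in the canonical transcript. Its base mean of 71801 was larger than that of VIM, at rank 12. Per kb, however, FN1 stood at 4171, so that VIM was 2.94-fold higher per kb of exon, 3.44-fold per kb of canonical transcript and 4.70-fold per kb of coding sequence. The order of these genes thus depends on whether length is taken into account.

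The promoters of these most abundant genes are shown because they differ in base composition. They are given 5′ to 3′ on the strand of the gene, from base 250 to base 11 before the RefSeq start on GRCh38.p14, at chr10:17227991-17228230 for VIM and at chr2:215436079-215436318 for FN1. Both RefSeq starts coincide with that of the canonical transcript.
VIM: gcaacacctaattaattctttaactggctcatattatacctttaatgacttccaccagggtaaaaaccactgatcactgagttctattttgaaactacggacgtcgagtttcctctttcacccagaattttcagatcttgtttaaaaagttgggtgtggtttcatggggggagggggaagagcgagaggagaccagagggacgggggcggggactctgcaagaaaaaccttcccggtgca
FN1: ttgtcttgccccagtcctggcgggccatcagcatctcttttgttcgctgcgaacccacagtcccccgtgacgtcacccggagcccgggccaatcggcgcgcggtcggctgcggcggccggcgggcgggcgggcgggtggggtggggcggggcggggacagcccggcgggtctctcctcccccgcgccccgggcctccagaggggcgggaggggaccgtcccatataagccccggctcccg

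Over the whole RefSeq window, from 250 bases before the start to 50 bases after it, the GC content was 76.7% for FN1 and 48.0% for VIM. The median of all 35116 windows was 58.7%, so that FN1 lay above it and VIM below it. The ratio of observed to expected CpG was 0.864 for FN1 and 0.584 for VIM, against a median of 0.579.

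CDH1 encodes E-cadherin, the adhesion protein of epithelial junctions. It lies on chromosome 16 from 68737292 to 68835537 on the + strand (ENSG00000039068). With a base mean of 13336 and a level per kb of 2195, it was the third of the 10 genes. CDH2 encodes N-cadherin, which is known to replace E-cadherin in mesenchymal cells, and lies on chromosome 18 from 27932879 to 28177946 on the − strand (ENSG00000170558). Its base mean was 3341 and its level per kb 389.3. The mean level of CDH1 was 5.64-fold that of CDH2 per kb of exon, 3.33-fold per kb of canonical transcript and 4.10-fold per kb of coding sequence. Both cadherins thus had considerable mean levels, and which line contributed which of them cannot be told apart.

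EPCAM encodes an adhesion molecule of the epithelial surface and lies on chromosome 2 from 47345158 to 47387601 on the + strand (ENSG00000119888). Its base mean of 2480 was below that of CDH2. As its exons cover only 2430 bases against 8583 for CDH2, its level per kb was higher, at 1020. EPCAM reached the 94.4th percentile of all listed genes per kb, CDH1 the 97.7th and CDH2 the 84.4th.

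Among the transcription factors, the zinc finger gene SNAI1 had the highest level per kb of exon, 131.0, with a base mean of 223.3. It is located on chromosome 20 from 49982980 to 49988886 on the + strand (ENSG00000124216). Its paralogue SNAI2 had a base mean of 311.6 and a level per kb of 94.96, on chromosome 8 from 48917598 to 48921740 on the − strand (ENSG00000019549). The order of this pair turned with the length used. Per kb of canonical transcript, SNAI2 stood at 142.9 and SNAI1 at 131.0, and per kb of coding sequence at 387.5 and 281.9.

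The zinc finger and homeobox genes ZEB1 and ZEB2 had base means of 723.7 and 602.2. ZEB1 lies on chromosome 10 from 31318495 to 31529814 on the + strand (ENSG00000148516), and ZEB2 on chromosome 2 from 144364364 to 144521057 on the − strand (ENSG00000169554). Their annotated exons are long, with 8650 and 26151 bases, and the levels per kb were 83.7 and 23.0. ZEB2 was the only one of the 10 genes below the median of all listed genes on this scale, at the 38.4th percentile. The ratio of ZEB1 to ZEB2 was 3.63 per kb of exon, 1.88 per kb of canonical transcript and 1.30 per kb of coding sequence, so that its size rested on the annotation of ZEB2.

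TWIST1 encodes a basic helix-loop-helix factor on chromosome 7 from 19020991 to 19117636 on the − strand (ENSG00000122691). It had the smallest base mean of the 10 genes, 109.0, and a level per kb of 54.6, at the 50.9th percentile. The level of VIM was 224.6-fold that of TWIST1 per kb of exon, 440.5-fold per kb of canonical transcript and 252.3-fold per kb of coding sequence.

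E-boxes in the promoters of the members were searched because the ZEB, SNAIL and TWIST factors bind such letters. RefSeq windows were at hand for 5 of the 10 genes (CDH2, FN1, VIM, ZEB1 and ZEB2), with 7 starts of ZEB1 and 2 of CDH2 among 12 windows. The general E-box CANNTG, which reads the same pattern on both strands, was found in 6 of the 12 windows, against 68.7% of all windows. By gene, it was found in 3 of the 5 (ZEB1, ZEB2 and CDH2), and no share by gene was computed over all genes. The CDH2 window with a match lies 140489 bases from the start of the canonical transcript, and among the 5 windows at canonical starts, 2 held an E-box (ZEB1 and ZEB2). The letters CACCTG, on either strand and part of CANNTG, were found in 2 of the 12 windows, both of ZEB1, against 20.6% of all windows. The windows of ZEB1 come from the same locus and are not independent. These matches are letters only and say nothing of binding.

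The CACCTG matches before the ZEB1 starts are shown in their surroundings, in capitals, on the + strand of GRCh38.p14. The first begins 57 bases before a start that lies 799 bases from that of the canonical transcript (chr10:31318348-31318377). The other two begin 242 and 85 bases before the start of the canonical transcript itself (chr10:31318966-31318995 and chr10:31319119-31319148). A further match begins 33 bases after the latter start.
ZEB1, 57 bases before: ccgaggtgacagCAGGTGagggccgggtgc
ZEB1, 242 bases before: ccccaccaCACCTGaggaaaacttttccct
ZEB1, 85 bases before: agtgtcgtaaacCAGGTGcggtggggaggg

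Annotated antisense genes that were listed start near the canonical starts of VIM and ZEB1. VIM-AS1 starts 1777 bases from the canonical start of VIM, overlaps the gene by 1778 bases and had a base mean of 169.1. Per kb of exon, it stood at 79.6, and VIM was 154.1-fold higher. ZEB1-AS1 starts 1231 bases from the canonical start of ZEB1 and overlaps it by 1953 bases. It had a base mean of 142.7 and a level of 36.9 per kb of exon, and ZEB1 was 2.26-fold higher on that scale. Per the methods, reads were counted by strand.

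The wider lists of epithelial genes, mesenchymal genes and transition factors hold the members themselves and were chosen with earlier results known. They are thus no independent test of the division between structural genes and transcription factors. The epithelial list also holds transcription factors such as OVOL2, so the lists do not separate both kinds of gene. By list medians, the epithelial and mesenchymal genes stood above the transition factors. All 28 epithelial genes examined were listed, and 27 of them lay above the median of all genes per kb. The keratins KRT19, KRT18 and KRT8, intermediate filament proteins of simple epithelia, led the list with 23914, 22018 and 20145 per kb, all above VIM. The lowest were OVOL2, a transcription factor of epithelial identity, with 13.2, and the tight junction genes OCLN with 103.6 and CLDN1 with 169.4. The median of the list was 619.5 per kb, with CDH1 and EPCAM above it.

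Of 22 mesenchymal genes examined, 21 were listed, 19 of them above the median of all genes, and the list had a median of 906.9 per kb. Of these genes, VIM was followed by SPARC, a matrix-binding glycoprotein, with 4870 per kb, and by FN1. COL1A1 and COL1A2 encode both chains of type I collagen, and COL1A1 stood at 2713 per kb, whereas COL1A2 was the lowest of the list. It was followed by CDH11 with 31.0 and PDGFRB with 146.4 per kb. CDH2 lay below the median of this list, whereas VIM and FN1 lay above it.

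Of the 14 transcription factors of the transition, 9 lay above the median of all genes per kb of exon. Against protein-coding genes only, SNAI2, ZEB1 and TWIST1 of these fell below the median, at percentiles of 44.8, 42.1 and 34.8. GSC and TWIST2, with 63.1 and 57.2 per kb, stood below ZEB1 with 83.7 and thus also fell below this median. SNAI1 stayed above it at 52.1. The counts for the lists were made against all listed genes only. TCF3, a broadly expressed E-box factor, was highest with 977.3 per kb, before FOXC1 with 296.1 and FOXC2 with 204.8. The lowest were KLF8 with 4.99, ZEB2 with 23.0 and PRRX1 with 25.8. The 5 factors among the 10 genes were thus not the most abundant of their list, whose median was 60.1 per kb.

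**Figure D2:**
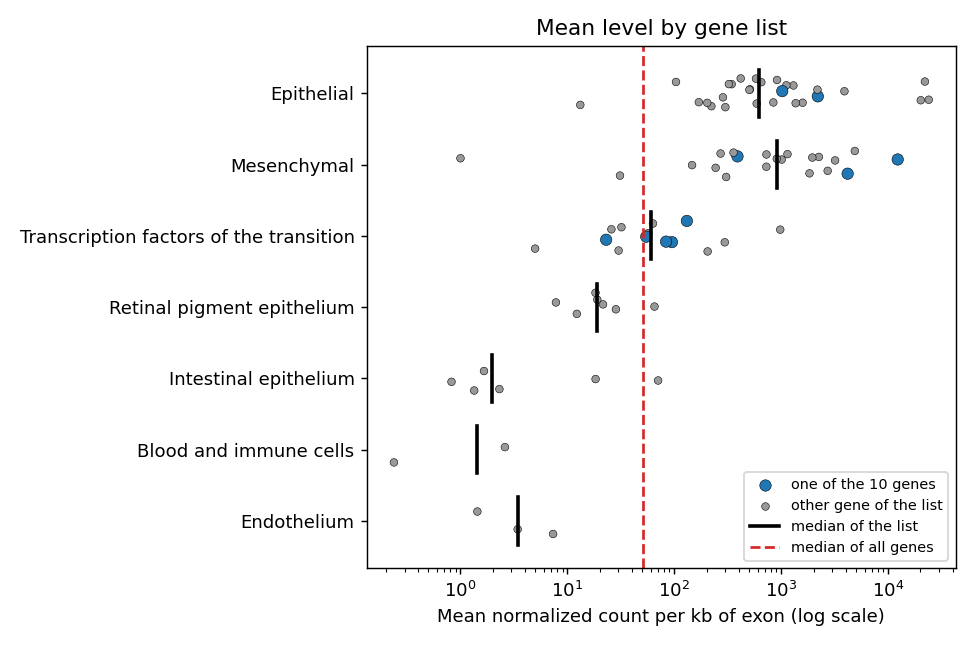
Mean level of each listed gene in mean normalized counts per kb of exon on a log axis, by gene list, where large blue points are the 10 genes and bars are list medians. Epithelial and mesenchymal genes lie mostly above the dashed median of all genes (51.3), the transition factors around it, and the markers of differentiated tissues mostly below it.

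Most markers of the tissues of origin had low levels in this mean, which pools both lines. Among retinal pigment epithelium markers, 7 of 12 were listed, with a median of 19.0 per kb, and MITF, the melanocyte and pigment epithelium factor, was the only one above the median of all genes, at 65.2. Of the visual cycle genes among these markers, RPE65 and RLBP1 were not listed, whereas LRAT was, at 12.2 per kb. The other markers not listed were TTR, TYR and DCT. Of 9 intestinal markers, 6 were listed, with a median of 1.99 per kb. CDX2, the homeobox factor of intestinal identity, was the only one of them above the median of all genes, at 70.5. Endothelial markers (3 of 4 listed) had a median of 3.43 and blood cell markers (2 of 5 listed) one of 1.42 per kb. The p53 targets CDKN1A and MDM2 had 21511 and 5433 per kb in the same mean, which gives no response to Nutlin-3a.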

How the data were processed

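The 12 libraries of both cell lines were grouped by their titles. Ribosomal RNA was depleted per the labels, but the methods of the paper name poly(A) selection. The submitters' processing notes name hg38, Trimmomatic 0.39, cutadapt 3.3, SAMtools 1.12, featureCounts 2.0.1 and DESeq2 1.32.0, and the paper's methods partly name other versions. The authors deposited 2 tables whose signal, the base mean, is a mean count over libraries after size-factor scaling, not divided by length. The other numeric columns are the authors' own comparisons of Nutlin-3a with DMSO (log2 fold change, its standard error, test statistic, p-value and adjusted p-value) and were not used. The planned tests between groups need values per library and were not made.

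Base means were divided by exon length from GENCODE 44 (GRCh38), matched by gene ID for 25836 of the 25914 genes. Percentiles are shares of genes at or below a value. Promoter windows were those of RefSeq on GRCh38.p14. Alternatives were other lengths, base means of at least 10, protein-coding genes, other E-box letters and a shorter window. The percentile and motif functions were tested on simulated data. Named genes were the 10 members and the 3 highest and 3 lowest of the epithelial, mesenchymal and transition factor lists, with a few of the marker lists, COL1A1, VIM-AS1 and ZEB1-AS1 chosen after their values were seen. A planned list gene is not reported here. Members and lists were chosen with earlier results of these data known. Python 3.11.15, pandas 2.3.3, numpy 2.4.6 and matplotlib 3.10.9 were used.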

Additional observations from a re-analysis of the deposited data

How the results depend on the processing

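Of the 10 genes, 9 lay above the median level per kb of all listed genes with exon length. The number was 5 with coding length, 6 among genes with a base mean of at least 10, 6 among protein-coding genes and 8 with canonical transcript length, an alternative chosen after seeing the data. Coding length also limits the reference to genes with a coding sequence, so that its lower number cannot be credited to length alone. With exon length among protein-coding genes, SNAI2, ZEB1, TWIST1 and ZEB2 already lay below the median, whereas SNAI1 lay above it. The 5 structural genes stayed above the median under each of these settings. The log2 ratio of SNAI1 to SNAI2 was 0.46 with exon length and reversed to −0.46 with coding length and to −0.13 with canonical transcript length. The other 8 of the 9 pairs of neighbours in the order kept their direction. E-box letters were found in 3 of the 5 genes with CANNTG, also in the bases before the start only. With CACCTG, by construction the narrower search, they were found in 1 gene. No share by gene was computed over all genes. In the bases before the start, CANNTG was found in 6 of the 12 windows, against 61.8% of all windows. CACCTG was found there in 2 of the 12 windows, against 17.5%. Of 40 recomputed percentiles, 13 moved by at least 10 points, all downwards. They came from the settings with a base mean of at least 10, protein-coding genes and coding length. Each of these leaves genes out of the reference, and leaving out genes with lower levels lowers a percentile. Coding length also changes the level of each gene. CDH2 was at the 79.0th percentile among protein-coding genes with exon length and at the 74.1th with coding length. What the reference and the length each add was not tested, and the shared direction is not read as a result about the 10 genes.

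No paired analysis was possible because the values used here are means over libraries. For the same reason the planned fits by treatment, without each replicate and with other count filters were not run, and no value has an error.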
